A study of Sus scrofa with 3 samples.

Results

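MSX1, SATB1 and NFIB, 3 transcription factor genes, were followed across 3 stages of the third deciduous molar germ (Dm3) of the miniature pig. They were taken because their courses on these arrays differed, so their own values are a description and carry no test. Every probe set that the platform table assigns to 1 of the 3 symbols was used, 8 of 23999 probe sets in all: 2 for MSX1, 4 for SATB1 and 2 for NFIB. The series names 6765 genes.

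The germs, with the dental lamina, came from the mandibles of Wuzhishan miniature pig embryos, were pooled within 1 litter per stage, and carried no treatment or genetic change in the labels. E40 is the cap stage without a secondary dental lamina, E50 the bell stage in which this lamina appears, and E60 the secretory stage, with this lamina present (called late bell in the study's methods). One Affymetrix Porcine Genome Array was used per pool, on which groups of short probes (probe sets) each report 1 signal. With 1 pool per stage no spread between animals or arrays can be given, no p-value is possible, and each difference compares 1 array with another rather than the stages at large. A pool mixes epithelium, mesenchyme and whatever lay beside the germ, so fewer cells of a type and less RNA per cell cannot be told apart. General markers of epithelium and mesenchyme were bright on each array. CDH1, the epithelial cadherin, stood at signals of 4285.7, 4565.9 and 4765.2 on its brightest probe set (always in the order E40, E50, E60). It was picked after its values were seen. VIM, the mesenchymal intermediate filament vimentin, stood at 19633.8, 18932.9 and 20460.3.

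MSX1 is a homeobox gene of the dental mesenchyme. It is induced by BMP4 from the early dental epithelium, helps to keep BMP4 expressed in the mesenchyme, and is needed for the tooth bud to reach the cap stage. SATB1 encodes a nuclear protein that binds AT-rich DNA, folds chromatin into loops and recruits chromatin modifiers, and it is known best from developing T cells and also from the epidermis. NFIB belongs to the nuclear factor I family of DNA-binding proteins, which act in the maturation of lung, brain and skin appendages, and its relative NFIC is known for its part in tooth root formation.

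The 3 genes ran along 3 different courses. The signal of MSX1 was highest on E40, lowest on E50 and intermediate on E60. SATB1 was higher on each later stage. NFIB was highest on E40 and lower on E50 and E60. The percentile below which 25% of the probe sets of an array lie served as its floor and lay at signals of 29.3, 17.2 and 21.8. Signals below the floor were set to it. A fold that involves such a signal is a minimum ("at least"), and a probe set below the floor on both arrays of a pair gave none. A difference over 2-fold was called. On E50 versus E40, 3 of the 6 probe sets with a fold were higher and 3 lower, where 2.6% of all probe sets were called higher and 15.6% lower. At the second step (E60 against E50), 4 of 8 were higher and 0 lower, against 6.37% and 1.88% of all probe sets. Over both steps (E60 against E40), 3 of 8 were higher and 2 lower, against 4.51% and 12.6%. With the arrays set to equal medians the second step had 0 of 8 higher, since all 4 lay just past 2-fold, and the first had 3 higher and 1 lower. A floor common to the arrays left 2 of 8 higher at the second step, and quantile normalization 1. The genes were chosen on these same contrasts, and the 3 pairs share arrays.

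**Figure D1:**
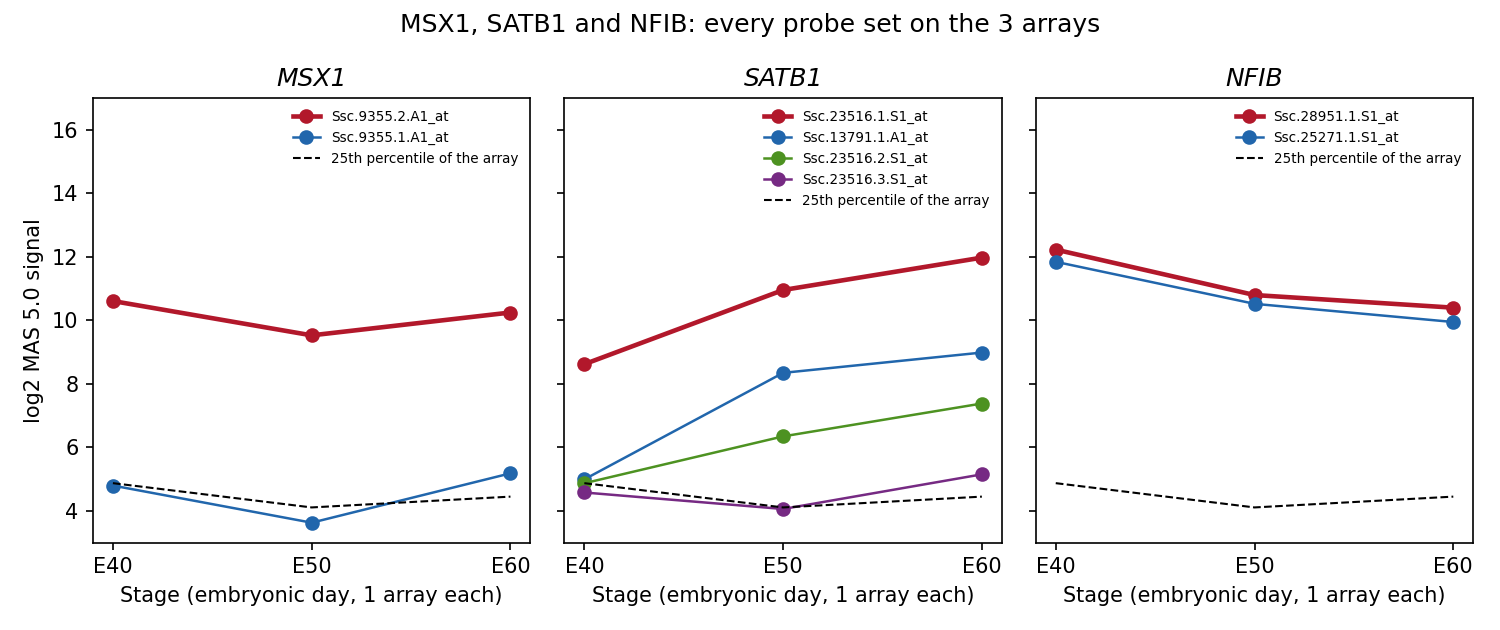
Log2 MAS 5.0 signal (vertical axis) of every probe set of MSX1, SATB1 and NFIB at each stage (horizontal axis, 1 array per stage), with the brightest probe set of each gene as the thick line and the 25th percentile of each array as the dashed line. MSX1 dips to 9.53 on E50 on its bright probe set, SATB1 climbs from 8.62 to 11.97 on its brightest, and both NFIB probe sets descend side by side.

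MSX1 had signals of 1559.0, 737.1 and 1213.7 on its bright probe set, Ssc.9355.2.A1_at. E50 was thus the low stage, 2.115-fold below E40 (a log2 difference of -1.08), and E60 was 1.65-fold above E50 and 1.28-fold below E40. The other probe set, Ssc.9355.1.A1_at, lay near the floor, at 27.8, 12.4 and 36.3. Its signals on E40 and E50 were under the floor, so it gave no fold between them, and on E60 it was at least 2.11-fold above E50 (1.07 on the log2 scale). That call rests on the lower floor of the E50 array: the difference was 0.31 with a common floor and 0.996 at equal medians, both within 2-fold. E50 was nominally the lowest of its 3 signals and E60 the highest, but signals under the floor cannot order the stages. The whole course of MSX1, with its low point on E50, therefore rests on 1 measured probe set.

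SATB1 was followed by 4 probe sets. The brightest, Ssc.23516.1.S1_at, stood at 392.8, 1982.5 and 4020.1, a step of 5.05-fold up to E50 and of 2.03-fold from there. The second, Ssc.13791.1.A1_at, stood at 31.8, 325.1 and 506.3, close to the floor at the cap stage, and its second step was 1.56-fold. The third, Ssc.23516.2.S1_at, stood at 29.2, 81.2 and 166.5, with the E40 signal just under the floor. Its steps were at least 2.78-fold and then 2.05-fold upward. These 3 probe sets ranked the stages alike, with E60 highest and E40 lowest. By its name, the second comes from another sequence cluster (13791) than the others (23516). The fourth, Ssc.23516.3.S1_at, was dim throughout, at 23.9, 16.7 and 35.5, under the floor on E40 and E50, and lowest on E50. From E40 to E60 the brightest probe set was 10.2-fold higher, which placed SATB1 at rank 10 of the 5743 named genes above the floor on all 3 arrays. At the first step it took rank 16 and at the second rank 182. Genes under the floor on any array were not ranked. Among these were AMELX and ENAM, at least 577-fold and 238-fold higher on E60 than on E40. SATB1 itself was chosen for its course.

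NFIB had 2 bright probe sets that ran together. Ssc.28951.1.S1_at stood at 4790.9, 1777.1 and 1349.0, and Ssc.25271.1.S1_at at 3671.3, 1466.8 and 986.3. E40 was the highest and E60 the lowest stage on both. E50 lay 2.70-fold and 2.50-fold below E40, and E60 lay 3.55-fold and 3.72-fold below E40. Between E50 and E60 the folds were 1.32 and 1.49, both within the 2-fold limit. Counted from the largest decrease, NFIB took rank 78 of 5743 on E60 versus E40 and rank 180 on E50 versus E40.

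The one measure of precision inside the table is how far the probe sets of 1 gene differ from each other. Such a spread includes unequal behaviour of the probes and none of the variation between litters. Over 1596 genes with at least 2 measured probe sets, the pooled SD of the log2 difference within a gene was 0.55 on E50 versus E40. It was 0.41 on E60 versus E50 (1625 genes) and 0.50 on E60 versus E40 (1596 genes). The NFIB probe sets were closer than this, with mean log2 differences of -1.38 ± 0.08, -0.49 ± 0.12 and -1.86 ± 0.05 in the same order (SD, n = 2 probe sets). SATB1 gave 2.84 ± 0.72 (n = 2) at the first step, 0.90 ± 0.22 (n = 3) at the second and 3.67 ± 0.45 (n = 2) over both. MSX1 had 1 measured probe set and no such spread of its own. Its difference between E40 and E60 (-0.36) was smaller than the pooled SD, and E50 lay 1.98 SD below E40 and 1.75 SD below E60. For NFIB, E50 and E60 differed by 0.97 SD on the brightest probe set. For SATB1 the steps were 4.28 and 2.48 SD. These ratios describe genes chosen for their courses, against a spread between probes only, and are no test of a difference between stages.

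How the arrays are brought to a common scale bears on calls of all 3 genes. The deposited signals share 1 trimmed mean, at which the median log2 difference over all probe sets was -0.15 on E50 versus E40. The median signals of the arrays themselves were 163.5 on E40 and 125.0 on E50. Setting the arrays to equal medians added 0.39 to every difference in that pair. It moved the median difference of all probe sets there from -0.15 to 0.24, and that of 16 housekeeping genes from 0.01 to 0.40. MSX1 on E50 versus E40 then became -0.69, within the 2-fold limit, and its difference between E60 and E40 became -0.05. The NFIB probe sets became -1.04 and -0.94 on E50 versus E40, so 1 of them stayed past 2-fold, and SATB1 became 2.72. SATB1 on E60 versus E50 became 0.94, also just within the limit, and its other 2 called probe sets 0.96 each. Quantile normalization, with -1.11, -1.56 and 2.41 for the brightest probe sets of MSX1, NFIB and SATB1 on E50 versus E40, and scaling to 16 housekeeping genes, with -1.09, -1.45 and 2.32, ended none of these calls on the brightest probe sets.

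**Figure D2:**
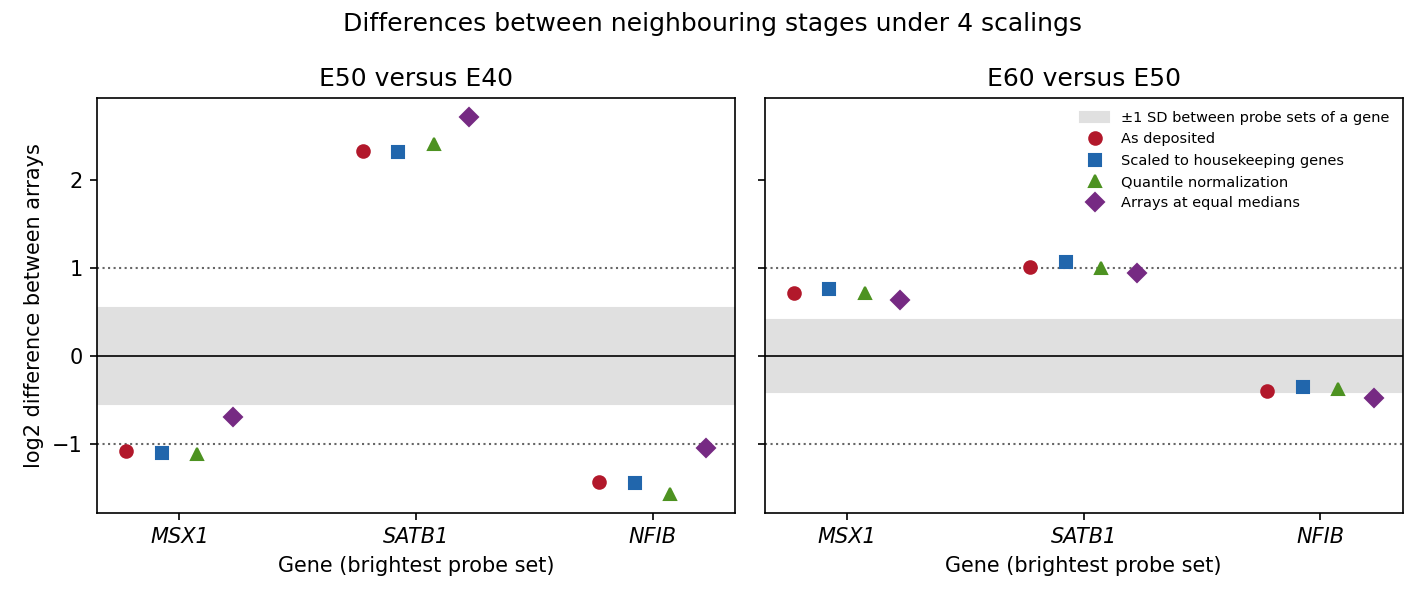
Log2 differences (vertical axis) of the brightest probe set of MSX1, SATB1 and NFIB (horizontal axis), in 1 panel per step between stages, each under 4 scalings of the arrays. The grey band is ±1 SD between probe sets of a gene (0.55 and 0.41), and the dotted lines mark 2-fold. MSX1 on E50 versus E40 moves inside the 2-fold lines with the arrays at equal medians (-0.69), and SATB1 stays above 2 in that pair under all 4.

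The closest relatives on the array were 2 further nuclear factor I genes. MSX2 and NFIX carry no named probe set in the platform table and have no value here. NFIA ran like NFIB on all 3 of its probe sets. The brightest stood at 1670.7, 830.8 and 600.3, the second at 206.2, 103.7 and 95.8, and the third at 141.5, 66.9 and 57.7. E40 was the highest and E60 the lowest stage on each. On E50 versus E40 the mean log2 difference of NFIA was -1.03 ± 0.05 (SD, n = 3 probe sets), and 2 of the 3 passed 2-fold (2.01, 1.99 and 2.12-fold lower). On E60 versus E40 all 3 passed it, at 2.15 to 2.78-fold lower. With the arrays at equal medians 0 of the 3 passed 2-fold at the first step (-0.62 on the brightest) and 1 over both steps. Quantile normalization left 1 at the first step and 1 over both.

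NFIC, the relative tied to root formation, took another course. The brighter of its probe sets read 1749.5, 2323.4 and 1446.0 and the other 270.9, 302.9 and 262.2, so E50 was its highest stage on both. Its log2 differences of 0.29 ± 0.18 at the first step and -0.45 ± 0.34 at the second (SD, n = 2 probe sets) stayed under 2-fold. The suffix of the brighter NFIC probe set marks probes that can match several transcripts.

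**Figure D3:**
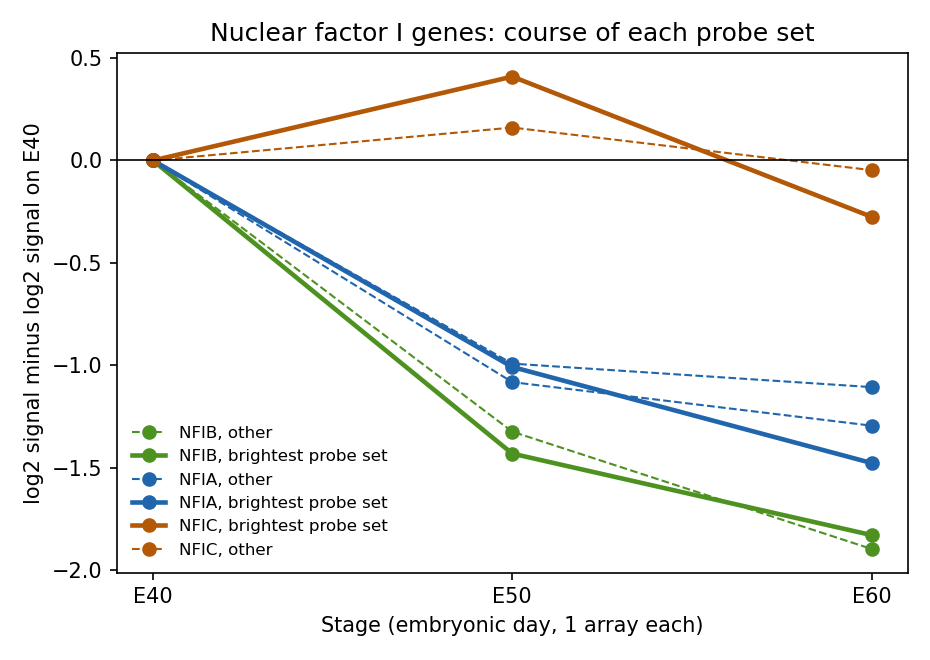
Log2 signal minus that on E40 (vertical axis) of each probe set of NFIB, NFIA and NFIC at each stage (horizontal axis, 1 array per stage), with the brightest of each gene as the solid line. All probe sets of NFIB and NFIA lie below 0 on E50 and E60, and both of NFIC lie above 0 on E50.

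Among other transcription factors known from tooth development, 5 genes, KLF4, PRRX1, MEIS1, MEIS2 and EGR1, were lower on E50 than on E40. Of 52 genes listed, 15 had a named probe set and 14 a fold. Between the cap and bell stages, 5 of the 14 were lower by over 2-fold and 0 higher, with a median log2 difference of -0.65, beside 8.14% lower, 2.79% higher and a median of 0.06 over all named genes. Arrays at equal medians gave 4 lower and 3 higher. At the second step 2 were higher and 2 lower (median -0.13), against 4.41% and 1.76% of all named genes (median -0.04). On E60 versus E40, 1 was higher and 4 lower (median 0.09), against 4.49% and 7.3% (median 0.00).

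The list held genes with the courses of MSX1 and NFIB. Its 14 genes above the floor on all arrays split into 6 that were lower on E50 and then higher, as MSX1 was, 4 that were lower at each step, as NFIB was, 3 that were higher and then lower, and 1 that was higher at each step, as SATB1 was. Over all 5743 named genes above the floor these courses took 24.8%, 19.2%, 36.7% and 19.2%. These are signs of differences of any size. KLF4, a zinc finger factor of differentiating epithelium and odontoblasts, stood at 707.5, 247.8 and 1566.0, 2.85-fold lower and then 6.32-fold higher. EGR1, an early response gene, stood at 130.4, 53.1 and 150.7, lowest on E50 on all 3 of its probe sets. MEIS2, a homeobox cofactor, stood at 669.4, 67.1 and 94.0, which was 9.98-fold lower on E50 and little above it on E60.

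On the side of NFIB, PRRX1, a homeobox factor of craniofacial mesenchyme, stood at 943.7, 275.1 and 207.0, 3.43-fold lower on E50 than on E40. MEIS1 stood at 4012.7, 1275.2 and 635.6, past 2-fold at each step, though only just at the second (-1.005 on the log2 scale). GLI1, a readout of hedgehog signalling, stood at 238.8, 337.4 and 153.3, and its E60 signal lay -1.14 from that of E50 on the log2 scale. With MEIS1 the brightest of the list, DLX5 of the dental mesenchyme (2398.5, 4702.5 and 3549.0) and LEF1 of Wnt signalling (3511.9, 3209.8 and 2454.8), stayed within 2-fold at each step. On the deposited scale none of the listed factors was higher by over 2-fold at the first step, and 3 were at equal medians. SATB1 was 5.05-fold higher there, but it was chosen for its course on these arrays. The list, too, was drawn up with earlier results of these data known.

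**Figure D4:**
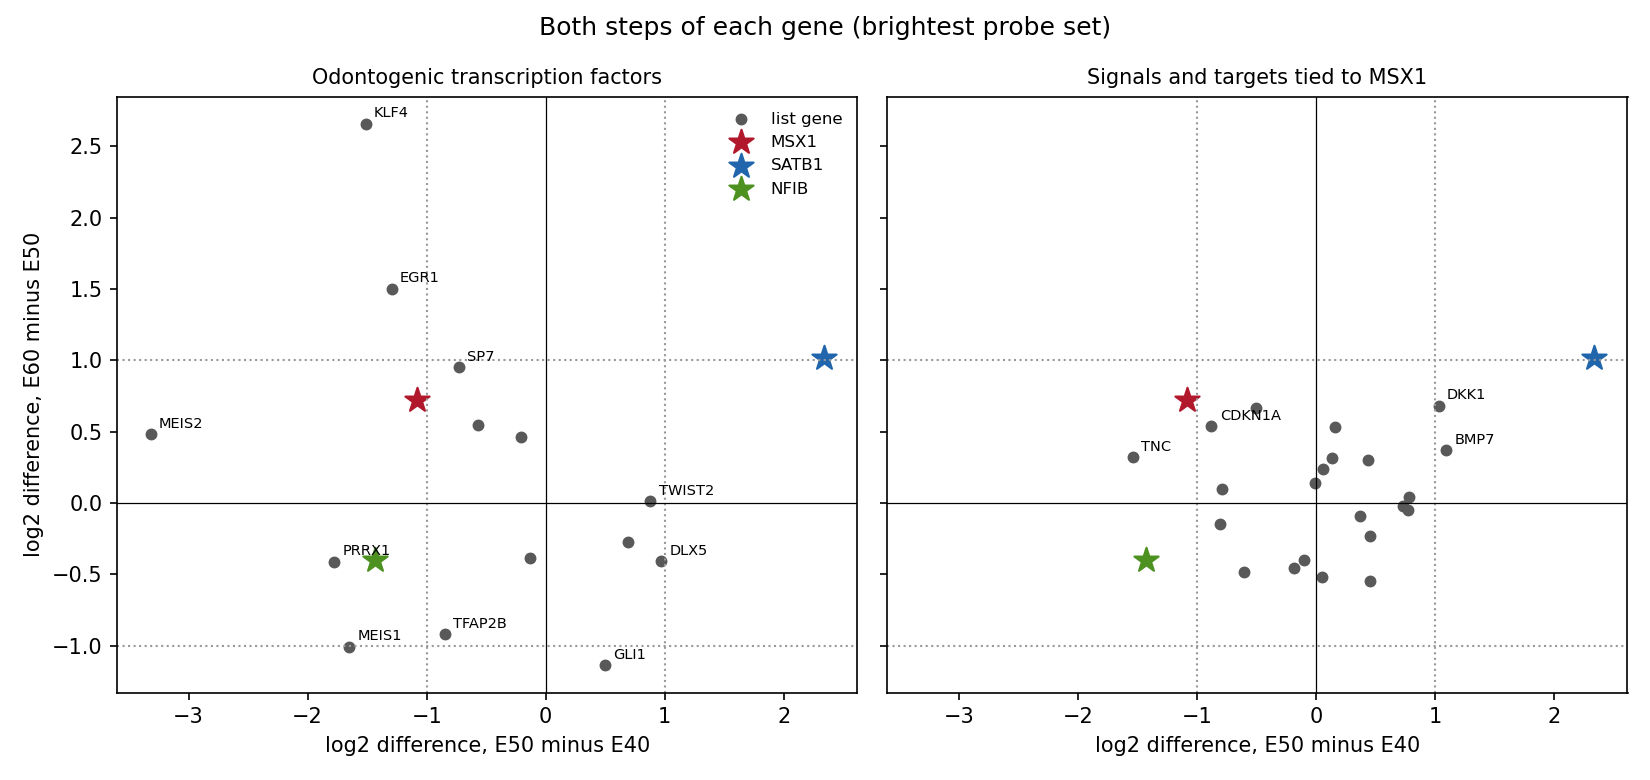
Log2 difference on E60 versus E50 (vertical axis) against that on E50 versus E40 (horizontal axis), brightest probe set of each gene, for the tooth transcription factors (left) and the signals and targets tied to MSX1 (right). Grey points are list genes, stars are MSX1, SATB1 and NFIB, and dotted lines mark 2-fold. KLF4 (-1.51 and 2.66) lies on the side of MSX1, and SATB1 (2.34 and 1.02) lies to the right of every list gene.

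The signals known to act above or below MSX1 showed no one course. Of 38 listed genes, 22 were named and all 22 gave a fold. At the first step 2 were higher and 1 lower (median 0.10), where 2.79% and 8.14% of all named genes were. At the second step 0 passed 2-fold (median 0.07), against 4.41% higher and 1.76% lower, and over both steps 2 were higher and 2 lower (median 0.20), against 4.49% and 7.3%. Of the 22, 5 were lower and then higher by sign, as MSX1 was, and 7 were higher at each step. Among all named genes above the floor 24.8% and 19.2% were, so these counts lie near the background. BMP4, which both induces MSX1 and is kept up by it, was among the latter, at 2328.6, 3160.1 and 3893.1, within 2-fold at each step. At the bell stage its signal was above and that of MSX1 below the cap stage. It was singled out after its values were seen. BMP7 stood at 607.9, 1297.1 and 1675.4 (2.13-fold higher at the first step), and DKK1, a secreted Wnt inhibitor, at 99.1, 202.5 and 325.3 (2.04-fold). TNC, the matrix protein tenascin C of condensing dental mesenchyme, was the 1 lower gene, at 1057.0, 364.8 and 455.4, 2.90-fold below E40 on E50. ID1, a target of BMP signalling, stood at 6398.8, 10945.6 and 10599.8, and ID3, another, at 5344.0, 8874.5 and 8756.7, both within 2-fold. SFRP1, a secreted Wnt antagonist, was split between its probe sets, at 6820.0, 6369.9 and 4836.1 on the brighter and at 2049.0, 580.3 and 365.9 on the dimmer, which alone passed 2-fold. Arrays at equal medians gave 5 higher genes and 1 lower at the first step, and 7 higher and 0 lower over both steps.

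Of 14 named chromatin proteins with which SATB1 works, 0 passed 2-fold in any pair of stages on the brightest probe set, with median log2 differences of 0.01, -0.16 and -0.15. With 2.79% to 4.49% of all named genes called higher and 1.76% to 8.14% lower per pair, 0 of 14 lies near the background. On dimmer probe sets with a signal under the floor, CUX1 was at least 2.21-fold higher on E60 than on E40 and SMARCA4 at least 2.11-fold higher on E60 than on E50. HDAC1, a histone deacetylase that SATB1 recruits, stood at 1915.6, 2160.2 and 1909.2. CTNNB1, the Wnt effector beta-catenin, stood at 7983.9, 6827.8 and 9000.0, CTBP2, a corepressor, at 6094.9, 4699.4 and 4407.7, and SMARCA4, the ATPase of the BAF remodelling complex, at 2833.2, 2412.8 and 1887.3. CUX1, a homeobox protein, was the 1 gene past 2-fold on E50 versus E40 with the arrays at equal medians. On the deposited scale it stood at 550.2, 1004.0 and 833.1. HDAC1 and CUX1 were chosen after their values were seen.

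Markers of the cell types in the germ moved beside the 3 genes, and their part in these courses was not tested. For every list below, the background over all named genes was 2.79% higher and 8.14% lower at the first step and 4.41% higher and 1.76% lower at the second. Of 13 mesenchyme markers, 5 passed 2-fold downward and 0 upward at the first step, and 2 upward and 0 downward at the second. By sign 9 of the 13 were lower and then higher, as MSX1 and 24.8% of all named genes above the floor were. FBN1, the microfibril protein fibrillin, ran closest among them (2632.2, 1311.7 and 2066.5). The markers summed to 66347.8, 53465.4 and 60350.0, and LUM, a matrix proteoglycan (9491.0, 9528.1 and 10524.6), stood level. This course was not confined to mesenchyme markers. Of 10 endothelial markers with a fold, 3 were lower and 0 higher at the first step. At the second, 2 were higher and 0 lower. Their median log2 differences were -0.76 and 0.51, beside -0.89 and 0.41 for the mesenchyme markers. Of 11 epithelial markers with a fold, 1 was higher and 0 lower at the first step, and their sum was 45701.0, 48329.9 and 44678.0. For proliferation, 19 genes gave 0 calls at the first step and 2 lower at the second, with sums of 26673.9, 33992.5 and 23710.4.

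Beside NFIB and MSX1, 23 of 23 skeletal muscle markers with a fold were lower on E50 than on E40, from a sum of 52543.8 to 1409.6, then 4261.4 on E60. At the second step 3 of 15 were higher and 1 lower, with a median log2 difference of -0.10. Under the floor lay 1, 7 and 11 of the 24 muscle markers. The keratinised epithelium markers summed to 15191.9, 3836.6 and 4308.0, with 4 of 7 lower on E50 than on E40. The interferon markers were highest on E50 (1789.0, 4932.3 and 1715.0), with 9 of 13 higher at the first step and 9 of 13 lower at the second. Beside SATB1, the ameloblast markers summed to 222.9, 5142.5 and 59209.2, with 3 of 4 higher and 1 lower at the first step and 4 of 4 higher at the second. The Schwann and nerve markers (2316, 3055 and 3275) and the cartilage markers (648, 3405 and 5280) also summed higher at each step. Of the former, 2 of 4 were higher at the first step and 1 of 6 at the second, with 0 lower. Of the latter, 1 of 5 was higher and 1 lower, then 1 of 4 higher and 0 lower. Among the Schwann and nerve markers, GAP43 (165.8, 409.5 and 977.0) and S100B (397.6, 849.8 and 876.5) rose. NCAM1, the brightest of them, was lowest on E60 (1590.2, 1612.3 and 1262.2). The median log2 difference of that list was 0.56 at the first step and -0.05 at the second. HAPLN1 held most of the cartilage sum (416.1, 3280.6 and 5118.9), and ACAN fell (89.6, 44.4 and 25.3). T cells are known for abundant SATB1. Of 13 T lymphocyte markers, 9, 6 and 9 lay under the floor at the 3 stages, and their sum was 357.8, 351.3 and 319.4. On the brightest probe sets, CD3G, CD4, PTPRC, IL7R and RAG1 were under the floor on every array, and CD247, GATA3 and LCK were above it on every array. Of 6 markers with a fold at the first step, 1 was higher, CD8A (22.1, 87.6 and 51.3, at least 2.99-fold), and 1 lower, CD2 (36.4, 2.3 and 1.6, at least 2.11-fold). These T cell genes were named after their values were seen.

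The genes nearest in course were sought over the 3 arrays, by the Euclidean distance between log2 signals centred on each gene's mean, among 5743 named genes above the floor throughout. A course of 3 points is short, and many genes lie near any common one. For SATB1 they were PLPPR5, a membrane protein related to lipid phosphatases (distance 0.03, signals 54.5, 269.2 and 557.5), BAMBI, a decoy receptor that dampens BMP and TGF-beta signalling (0.18, with 719.9, 3921.5 and 8816.8), LPAR3, a receptor of lysophosphatidic acid (0.22), and MRAP2, an accessory protein of melanocortin receptors (0.32). A second probe set of BAMBI ran the same way, at 132.5, 938.7 and 2700.6. The SATB1 probe sets Ssc.13791.1.A1_at and Ssc.23516.2.S1_at lay at 0.73 and 0.70 from the brightest one, with 12 and 11 other genes closer. The dim Ssc.23516.3.S1_at lay at 2.30, with 1989 genes closer.

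For MSX1 the nearest were TAF4B, a subunit of the general factor TFIID (0.01), ATP4A, a proton pump subunit (0.04), CREBZF, a leucine zipper factor (0.05), and FBN1 (0.06). TAF4B (64.8, 30.7 and 49.9) and ATP4A (59.2, 28.2 and 44.7) were dim, while CREBZF (1481.4, 666.4 and 1128.3) was bright, and its other 3 probe sets were lowest on E50 as well. The dim second MSX1 probe set lay at 0.65 from the bright one, with 1065 genes closer. For NFIB they were UPK3BL2 (0.08), MORC3, a nuclear zinc finger protein (0.13), COL7A1, the anchoring fibril collagen (0.16), and RASSF4, a Ras association protein (0.16). The other 2 probe sets of UPK3BL2 were highest on E40 as well. The second NFIB probe set lay at 0.12, with 1 gene closer. A second probe set of MORC3 did not share the course (102.8, 93.7 and 110.1). After quantile normalization the nearest 4 held 3 of these genes for SATB1, 2 for MSX1 and 0 for NFIB.

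**Figure D5:**
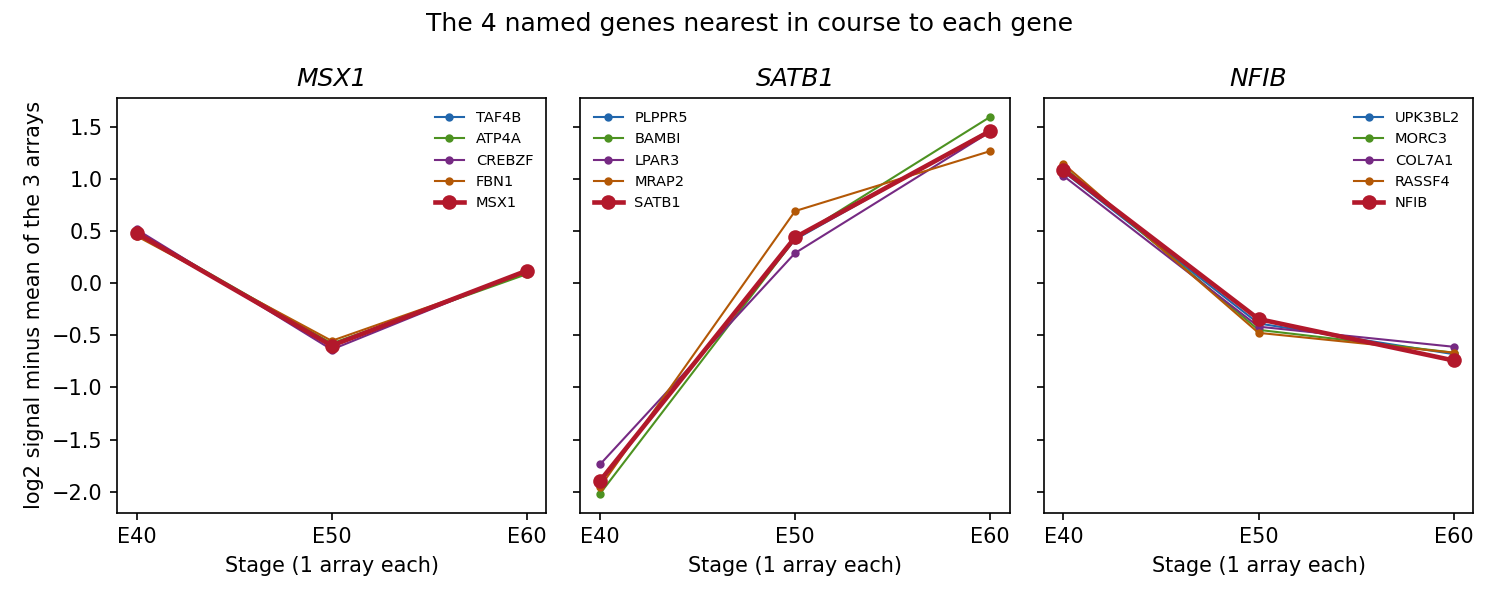
Log2 signal minus the mean of the 3 arrays (vertical axis) at each stage (horizontal axis, 1 array per stage) of MSX1, SATB1 and NFIB (thick red lines, brightest probe set) and of the 4 named genes nearest to each (thin lines). The lines of MSX1 and its neighbours nearly coincide (distances 0.01 to 0.06), and those of SATB1 spread more widely (0.03 to 0.32).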

How the data were processed

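Total RNA of 3 litter pools, 1 per stage, was hybridised to Affymetrix Porcine Genome Arrays. The authors computed MAS 5.0 signals (named in the submitters' processing notes) in GeneSpring and deposited log2 values, used here as they stand. The mean signal without the brightest and dimmest 2% was checked and is 500.1 on each array, so differences are relative to that mean. Detection calls were not used here. The 124 array controls among the 24123 probe sets were not used. Symbols came from the platform table: 10069 probe sets carry 1 symbol, 198 several (none holds a member) and 13732 none. A reference table matched 9961 by gene ID and changed 0 symbols. No genome build is named, so no coordinates are given.

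Signals under the 25th percentile of their array were raised to it, and over 2-fold was called. A list gene was read from its brightest probe set (by mean log2 signal). Named genes are the members, their relatives, list genes past 2-fold between neighbouring stages, the 3 brightest of a list and the 4 nearest in course; CDH1, BMP4, HDAC1, CUX1 and the T cell genes were added after their values were seen. The members and the 18 lists were chosen with earlier results of these data known. The array number, 1 per stage, limits the precision. Alternatives were other floors, scalings, a 3-fold threshold and other choices of probe set. The calculations (Python 3.11.15, pandas 2.3.3) were tested on simulated data.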

Additional observations from a re-analysis of the deposited data

How the results depend on the processing

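Every difference of the brightest probe sets of MSX1, SATB1 and NFIB kept its direction and moved by at most 0.39 on the log2 scale under the other floors and scalings, although MSX1 on E50 versus E40 and SATB1 on E60 versus E50 left the 2-fold limit at equal medians. Among the dimmer SATB1 probe sets, a floor at the 50th percentile left bounds of 0.99 and 1.63 for Ssc.13791.1.A1_at on E50 and on E60 versus E40, and 0.41 and 0.03 for Ssc.23516.2.S1_at on E60 versus E50 and E40. Quantile normalization gave the latter 2.09 on E50 versus E40. A common floor left 0.28 for Ssc.23516.3.S1_at and 0.31 for MSX1 Ssc.9355.1.A1_at on E60 versus E50. No paired analysis was possible because each stage has 1 array. For the tooth transcription factors, the 0 higher genes on E50 versus E40 became 1 with no floor, 3 at equal medians and 1 under quantile normalization, and the 5 lower ones became 3 over 3-fold. On E60 versus E50 the 2 higher became 1 with the floor at the 50th percentile, over 3-fold and without suffixed probe sets, and the 2 lower became 1 under quantile normalization and under housekeeping scaling, and 0 over 3-fold. On E60 versus E40 the 1 higher became 2 with no floor, at equal medians and under quantile normalization, and 0 over 3-fold. For the genes tied to MSX1, the 2 higher on E50 versus E40 became 1 with the floor at the 50th percentile, 5 at equal medians and 0 over 3-fold, and the 1 lower became 0 over 3-fold and 3 with the mean over probe sets. On E60 versus E40 the 2 higher became 1 with that floor, 7 at equal medians and 1 over 3-fold, and the 2 lower became 1 with that floor, 0 at equal medians, 0 over 3-fold and 4 with the mean over probe sets. The partners of SATB1 had 1 higher on E50 versus E40 at equal medians. Of the 4 genes nearest to MSX1, 2 remained under quantile normalization and 1 by Pearson correlation, and for NFIB 0 under both. The cause of these changes was not tested. Signals near the floor, as on the second MSX1 and the fourth SATB1 probe set, cannot order the stages.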
